A study of Mus musculus with 25 samples.

Results

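The genes described here are the enzymes that make purine nucleotides, 10 of the 23116 genes in the expression table of the study. The rule that lists them names enzymes of the textbook pathway and uses no measured value: Ppat, Gart, Pfas, Paics, Adsl and Atic of the de novo route, Impdh1, Impdh2 and Gmps of the guanylate branch, and Hprt of base salvage. All 10 were in the table and all 10 passed the filter on low values, which left 19221 genes for testing.

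RNA was sequenced from sorted HSLAM cells, a fraction of mouse bone marrow (LSK+ CD150+ CD48-) that is enriched for hematopoietic stem cells (HSCs). They came from 3 Znf143 f/f x Rosa26ERT2-Cre- mice, here called Znf143 f/f, and from 3 Znf143 f/f x Rosa26ERT2-Cre+ mice, here called Znf143 -/-. The mice were male C57BL/6 littermates, 8 to 12 weeks old, and both genotypes carried the floxed allele, whose loxP sites flank exon 1, and received tamoxifen at the middle dosage of the study for 10 days. The sample labels name the deleted genotype as a CTCF knockout, whereas the study describes it as Znf143 -/-. Cre was expressed from the Rosa26 locus, which is active in most cell types, so the deletion was not limited to HSCs. The control mice lacked Cre, so an effect of active Cre and an effect of the deletion cannot be told apart.

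De novo purine synthesis builds the purine ring step by step on phosphoribosyl pyrophosphate (PRPP), with nitrogen from glutamine, glycine and aspartate and carbon from carbon dioxide, glycine and formyl-tetrahydrofolate, and ends at inosine monophosphate (IMP). IMP is then turned into AMP or, through the IMP dehydrogenases and GMP synthetase, into GMP. Salvage enzymes such as Hprt instead attach a ready-made base to PRPP, which costs far less energy. Quiescent blood stem cells are commonly described as having a low demand for new nucleotides, and demand rises when they divide.

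Levels are given as rescaled FPKM, the fragments per kilobase of listed gene length after each library was scaled by the median of its gene ratios to the other libraries. The files give FPKM only, but whole fragments could be recovered from them, and 38643255 to 57895793 fragments fell on genes per library. Zfp143, the mouse symbol of Znf143, was at 3, 4.32 and 3.57 FPKM in the f/f libraries and at 0.151, 0.29 and 0.264 FPKM in the -/- libraries, a remaining level of 6.48% of control. Its log2 change was -3.49 (SE 0.238, limma adjusted p = 0.000996, n = 3 and 3 libraries). Ctcf, the gene that the labels name, was at 29.5, 31.7 and 29.5 FPKM in f/f and at 30.9, 26.4 and 25.9 FPKM in -/- libraries, with overlapping genotypes (log2 difference -0.13, SE 0.0961, limma adjusted p = 0.468).

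The 6 libraries were not equally far apart. Between f/f libraries 1 and 3 the median chi-square of the fragment counts was 1.47 over 13471 genes, and between -/- libraries 2 and 3 it was 1.65, where sampling noise alone gives 0.455. The other same-genotype pairs had medians of 13.9 to 17.9. The 2 close pairs differed by more than sampling noise, which does not show whether they came from separate mice. They were kept as separate libraries because the study describes separate mice. In contrast, f/f library 2 and -/- library 1 stood apart from them. The differences of the purine genes and of the called genes of other lists are therefore also given without these 2 libraries. They are given as well with each close pair averaged into 1. The labels name no batch. Across all genes, 1154 passed an adjusted p of 0.05 with 6 libraries, 7960 passed without f/f library 2 and -/- library 1, and 47 passed with the close pairs averaged.

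None of the 10 purine synthesis genes passed an adjusted p of 0.05 between the genotypes (limma on log2 of rescaled FPKM, n = 3 and 3), beside 6.00% of all genes tested. In this fit 1 of the 10, Atic, had an unadjusted p under 0.05, beside 24.2% of all genes. By limma voom on the recovered fragments 0 of the 10 passed, and Atic and Gart had an unadjusted p under 0.05, beside 25.0% of all genes. Of the 10, 6 were higher and 4 lower in Znf143 -/- cells by the fitted difference, with a median log2 difference of 0.117, beside 0.006 over all genes tested. This median was 0.184 without -/- library 1, 0.071 without -/- library 3, 0.049 without -/- library 2, 0.065 without f/f library 2 and 0.079 with the close pairs averaged. The fitted differences ran from -0.28 for Atic to 0.43 for Gart, and the 95% intervals of the 10 together spanned -0.47 to 0.85. Without f/f library 2 and -/- library 1, 6 of the 10 passed, 5 higher and 1 lower, in a fit that called 41.4% of all genes. This fit keeps only the close pairs, so its p-values, here and below, measure the spread within those pairs. With the close pairs averaged, 0 of the 10 passed, in a fit that called 0.245% of all genes. In these bulk samples, fewer cells of a type and less RNA per cell cannot be told apart.

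**Figure D1:**
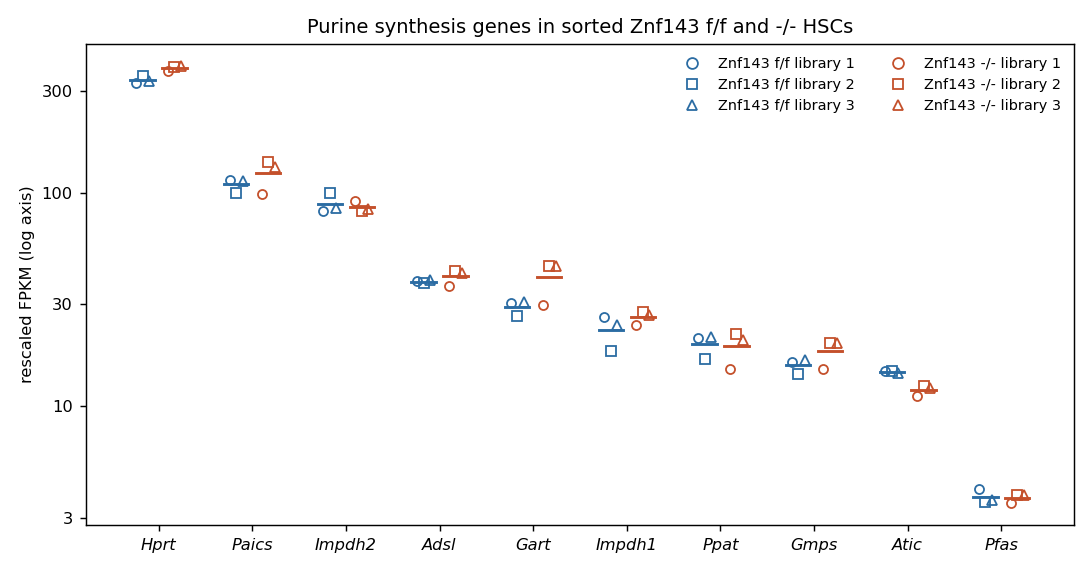
Rescaled FPKM (log axis) of the 10 purine synthesis genes in each of the 3 Znf143 f/f libraries (blue) and the 3 Znf143 -/- libraries (orange). The symbol shape gives the library number and the bar the group mean. Hprt was highest in every library and Pfas lowest, and only for Hprt and Atic do the genotypes not overlap.

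The levels of the pathway spanned a wide range within the same cells. In Znf143 f/f cells the order of mean level per kilobase of listed length was Hprt (337 ± 13.5 FPKM, SD, n = 3), Paics (110 ± 8.31), Impdh2 (88.8 ± 9.39), Adsl (38.3 ± 0.574), Gart (29.3 ± 2.35), Impdh1 (22.7 ± 4.13), Ppat (19.5 ± 2.56), Gmps (15.6 ± 1.3), Atic (14.5 ± 0.193) and Pfas (3.77 ± 0.299). The same order held in Znf143 -/- cells. Among neighbours in this order, the f/f libraries of Impdh1 and Ppat overlapped, as did those of Gmps and Atic, so their order was not resolved. The listed lengths pool all annotated exons, and for Atic the listed 7985 bases are 2.81 times the 2845 bases of its longest coding transcript. Per kilobase of the longest coding transcript, an alternative chosen after the data were seen, Atic stood at 40.8 FPKM in f/f cells and moved from the 9th to the 5th place. By this length the f/f means of Impdh2 (147 ± 15.5 FPKM, SD) and Paics (139 ± 10.5 FPKM) differed by less than their SDs. In -/- cells Paics was the higher (156 against 142 FPKM), so their order was not resolved. Hprt stayed first and Pfas last by both lengths. The ratio of a gene between genotypes does not depend on the length used.

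The de novo route starts with Ppat, the amidotransferase that commits PRPP to purine synthesis (ENSMUSG00000029246, GRCm38 chr5:76913249-76951578, minus strand). Ppat was at 20.8, 16.6 and 21.2 FPKM in f/f libraries 1 to 3 and at 15, 21.9 and 20.5 FPKM in -/- libraries 1 to 3. The genotypes overlapped, with f/f library 2 and -/- library 1 the lowest of each, and the log2 difference was -0.04 (SE 0.171, limma adjusted p = 0.913).

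Gart, a trifunctional enzyme that acts at several early steps and uses formyl-tetrahydrofolate at one of them, had the largest difference of the 10 genes. It lies on the minus strand at chr16:91621186-91646952 (ENSMUSG00000022962). Gart was at 30.6, 26.6 and 30.7 FPKM in the f/f libraries and at 29.7, 45.4 and 45.3 FPKM in the -/- libraries. In -/- libraries 2 and 3 it was above every f/f library, whereas -/- library 1 fell within the f/f range. The mean in -/- cells was 1.37 times that in f/f cells, and the log2 difference of 0.43 (SE 0.179) did not pass (limma adjusted p = 0.208). Without -/- library 1 the difference was 0.63 (limma adjusted p = 0.0188), in a fit that called 11.0% of all genes. Without f/f library 2 as well it was 0.56 (limma adjusted p = 0.00143), and over all alternatives the adjusted p ran from 0.00143 to 0.717.

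Pfas, the glutamine-using synthase of the route, was the lowest of the 10 genes (ENSMUSG00000020899, chr11:68985697-69008460). It was at 4.11, 3.55 and 3.65 FPKM in f/f and at 3.52, 3.84 and 3.82 FPKM in -/- libraries, on at least 1271 fragments per library. The values of the genotypes interleaved, and the log2 difference was -0.01 (SE 0.109, limma adjusted p = 0.953), or -0.02 without f/f library 2 and -/- library 1.

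Paics, a bifunctional carboxylase and synthetase, was the highest of the de novo genes (ENSMUSG00000029247, chr5:76951307-76967509). It was at 115, 100 and 114 FPKM in f/f and at 98.2, 139 and 132 FPKM in -/- libraries. In -/- libraries 2 and 3 it was above all f/f libraries, as Gart was, but in -/- library 1 it was below them. The log2 difference was 0.15 (SE 0.149, limma adjusted p = 0.583). Without f/f library 2 and -/- library 1 it was 0.24 (limma adjusted p = 0.0117).

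Adsl, the lyase that acts in the de novo route and again in the branch to AMP, lies at chr15:80948490-80970946 (ENSMUSG00000022407). Its f/f libraries were tightly grouped at 38.4, 37.7 and 38.9 FPKM, and the -/- libraries were at 36.5, 43 and 42.3 FPKM. Again -/- library 1 was below and the other two were above the f/f libraries. The log2 difference was 0.08 (SE 0.089, limma adjusted p = 0.635), and 0.14 (limma adjusted p = 0.0292) without f/f library 2 and -/- library 1.

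Atic, the bifunctional enzyme that closes the purine ring and uses formyl-tetrahydrofolate, was the only de novo gene whose genotypes did not overlap (ENSMUSG00000026192, chr1:71557150-71579631). It was at 14.6, 14.7 and 14.3 FPKM in f/f and at 11.2, 12.4 and 12.2 FPKM in -/- libraries. All 3 -/- libraries were below all f/f libraries, as were those of 15.3% of all genes tested, and the mean in -/- cells was 82.3% of the f/f mean. The log2 difference of -0.28 (SE 0.0802) had an adjusted p of 0.0933 by limma, and so did not pass. It was -0.23 (limma adjusted p = 0.0136) without f/f library 2 and -/- library 1, and its adjusted p ran from 0.0136 to 0.638 over the alternatives. On the FPKM as deposited, in which -/- library 3 carries the divisor of -/- library 2, Atic was at 14.9, 13.7 and 14.6 in f/f and at 10.7, 13 and 15.1 in -/- libraries, and the genotypes overlapped.

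The guanylate branch is entered through IMP dehydrogenase, which exists as a pair of isozymes. Impdh1 (ENSMUSG00000003500, chr6:29200434-29216364) was at 26.1, 18.1 and 23.9 FPKM in f/f and at 24, 27.6 and 26.8 FPKM in -/- libraries, with f/f library 2 lowest. Its log2 difference was 0.21 (SE 0.148, limma adjusted p = 0.429), and it was 0.06 without f/f library 2 and 0.12 without -/- library 1 as well. Impdh2 (ENSMUSG00000062867, chr9:108560286-108565584), the isozyme usually linked to proliferation, was at 82.3, 99.5 and 84.5 FPKM in f/f and at 91.4, 81.8 and 83.7 FPKM in -/- libraries. Here the libraries that stood apart, f/f library 2 and -/- library 1, were the highest of their genotypes, and the log2 difference was -0.05 (SE 0.104, limma adjusted p = 0.82), or -0.01 without these 2 libraries. A processed pseudogene, Impdh2-ps, was listed at 4.39 to 5.49 FPKM, and how reads of near-identical sequence were split between it and Impdh2 is not given in the sources used here. The ratio of Impdh2 to Impdh1 within a library was 3.15, 5.49 and 3.53 in f/f and 3.81, 2.96 and 3.13 in -/- libraries, so Impdh2 was the more abundant isozyme in all 6. The ratio differed by -0.26 on the log2 scale (two-sided exact permutation p = 0.5, adjusted over 3 ratios 0.5, where 0.1 is the smallest p that 3 against 3 libraries allow). It was -0.13 without f/f library 2 and -/- library 1 and -0.33 with the close pairs averaged.

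Gmps, the synthetase that aminates XMP to GMP, lies at chr3:63976106-64022579 (ENSMUSG00000027823). Gmps was at 16.2, 14.1 and 16.5 FPKM in f/f and at 15, 19.8 and 19.7 FPKM in -/- libraries. It followed the pattern of Gart, high in -/- libraries 2 and 3 and within the f/f range in -/- library 1. The log2 difference was 0.21 (SE 0.135, limma adjusted p = 0.403), and 0.27 (limma adjusted p = 0.00735) without f/f library 2 and -/- library 1.

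Hprt, the salvage enzyme that returns hypoxanthine and guanine to IMP and GMP, was the most abundant of the 10 transcripts (ENSMUSG00000025630, chrX:52988137-53021659). It was at 326, 352 and 332 FPKM in f/f and at 373, 388 and 393 FPKM in -/- libraries. All 3 -/- libraries were above all f/f libraries, as were those of 15.4% of all genes tested, and the same was so on the FPKM as deposited. The log2 difference of 0.19 (SE 0.0941, 95% interval -0.03 to 0.42) did not pass (limma adjusted p = 0.268), and it was 0.25 (limma adjusted p = 0.0126) without f/f library 2 and -/- library 1. Hprt was 13.9, 16.7 and 14.4 times the geometric mean of the 6 de novo genes in the f/f libraries and 18.7, 15.1 and 15.8 times that mean in the -/- libraries. These ratios overlapped between genotypes.

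**Figure D2:**
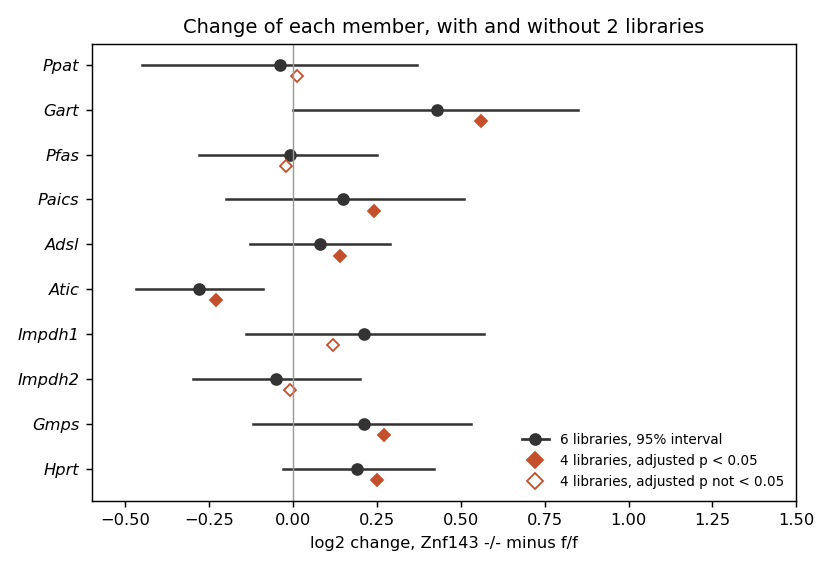
Log2 difference of each gene, Znf143 -/- minus f/f, with 6 libraries (black points, bars the 95% intervals of limma) and without f/f library 2 and -/- library 1 (orange diamonds, filled where the adjusted p was under 0.05). With 6 libraries none of the 10 passed. With 4 libraries, which are only the close pairs, Gart, Paics, Adsl, Gmps, Hprt and Atic did.

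With the close pairs averaged into 1 value each, so that 2 values stood against 2, the log2 differences were -0.07 for Ppat, 0.36 for Gart, -0.02 for Pfas, 0.11 for Paics, 0.05 for Adsl and -0.31 for Atic. For Impdh1, Impdh2, Gmps and Hprt they were 0.26, -0.07, 0.18 and 0.17. All 10 had the sign of the fit with 6 libraries, and none passed (limma adjusted p of 0.637 for Atic to 0.991 for Pfas).

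Within a genotype, most of the genes moved together from library to library. Relative to each gene's own mean over the 6 libraries, the mean of the 10 genes was 0.00, -0.12 and -0.01 on the log2 scale in f/f libraries 1 to 3 and -0.13, 0.14 and 0.12 in -/- libraries 1 to 3. The libraries that stood apart, f/f library 2 and -/- library 1, were thus the lowest of their genotypes in this mean. Of the 10 genes, 9 were lowest among the -/- libraries in library 1, where 45.1% of all genes tested were, and 7 were lowest among the f/f libraries in library 2, where 44.6% of all genes were. The exception in the first count was Impdh2, which ran opposite to Impdh1 and to most de novo genes. Across the 45 pairs of genes the median Pearson r of the deviations from the genotype means was 0.67. For Gart and Paics it was 0.99 and for Impdh1 and Impdh2 it was -0.99. These values rest on 6 libraries that share the 2 close pairs, and no value for pairs of other genes is given here.

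**Figure D3:**
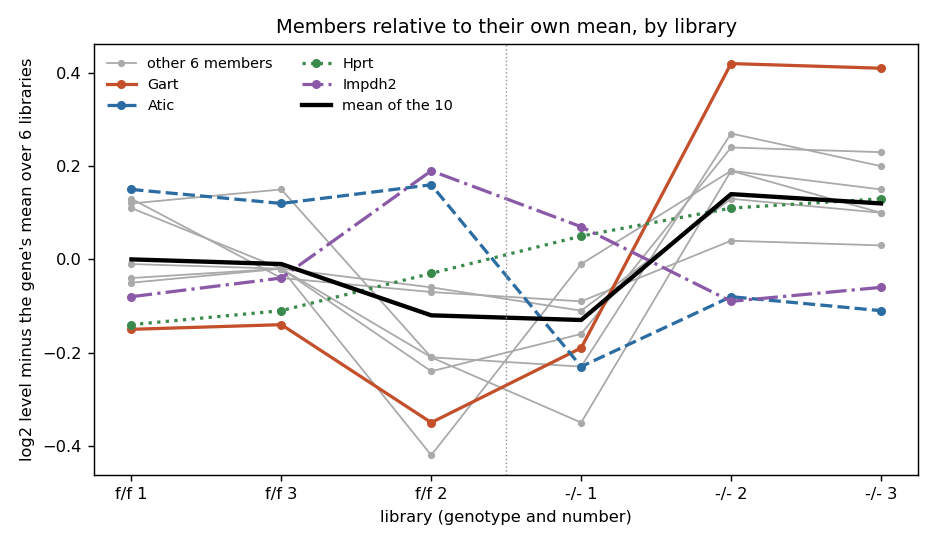
Level of each gene in each library, on the log2 scale relative to the gene's own mean over the 6 libraries, with lines that only join the values of 1 gene. The mean of the 10 genes (black) lies at -0.12 in f/f library 2 and -0.13 in -/- library 1 and at 0.14 and 0.12 in -/- libraries 2 and 3, while Atic, Hprt and Impdh2 depart from it.

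Among 7077 other genes with a mean of at least 5 FPKM, those most like this mean profile over the 6 libraries were Psme3 (r = 0.9993), Afg3l2 (r = 0.9984), Elp2 (r = 0.9978), Utp6 (r = 0.9977) and Elp3 (r = 0.9969). Psme3, a proteasome activator subunit, was at 57.6, 47.3 and 56.3 FPKM in f/f and at 48.1, 70.2 and 67.8 FPKM in -/- libraries. None of the 5 passed an adjusted p of 0.05 by limma (0.534 to 0.699). A correlation of at least 0.95 with this profile was seen for 302 of the 7077 genes, so it is not rare in these libraries.

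Ppat and Paics, enzymes of the same route, are neighbours in the genome. They start 271 bases apart on opposite strands, and the annotated first exons of their longest coding transcripts share 272 bases. The library kit does not mark strand, so fragments from the shared bases cannot be told apart between the 2 genes. Paics was 5.51, 6.03 and 5.37 times Ppat in the f/f libraries and 6.55, 6.33 and 6.46 times Ppat in the -/- libraries. All -/- ratios were above all f/f ratios, with a log2 difference of 0.20 (two-sided exact permutation p = 0.1, the smallest possible, and 0.3 adjusted over 3 ratios). It was 0.23 without f/f library 2 and -/- library 1 and 0.18 with the close pairs averaged. Gart starts 554 bases from Son, a splicing cofactor gene on the opposite strand. Son was at 27.1, 35.9 and 28.8 FPKM in f/f and at 33.3, 22.1 and 24 FPKM in -/- libraries, and so was low where Gart was high (log2 difference -0.22, SE 0.182, limma adjusted p = 0.511).

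Promoter windows from RefSeq (GRCm38.p6, 250 bases before to 50 bases after the start) were found for 9 of the 10 genes, all but Pfas. The core of the ZNF143 binding site, searched as CCCAGNATG on both strands, was in none of the 9, beside 2.04% of all 32851 windows, and the extension ACTACAATT was in none, beside 0.393%. The E-box CACGTG, the sequence bound by Myc and Max, was in 3 of the 9 (Atic, Impdh2 and Paics), beside 7.15% of all windows. CCAAT was in 4 of the 9, beside 37.4%, CCGGAAGT in 1, beside 3.89%, GCGCATGCG in 0, beside 1.75%, and AAGATGGCG in 0, beside 1.4%. These matches describe letters in the windows and not bound sites. The 30 bases around each E-box are shown to compare them, on the plus strand and 5′ to 3′, with the E-box in capitals. The E-box starts 7 bases before the RefSeq start of Atic, 110 bases before that of Impdh2 and 203 bases before that of Paics. By the gene positions given above, which differ from the RefSeq starts, the E-box of Impdh2 lies within the gene. That of Atic overlaps the start of the gene, and that of Paics lies within the annotated first exon of Ppat.
Atic, chr1:71557137-71557166: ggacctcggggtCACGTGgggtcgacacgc
Impdh2, chr9:108560314-108560343: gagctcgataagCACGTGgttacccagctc
Paics, chr5:76951087-76951116: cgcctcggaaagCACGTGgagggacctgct

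The 250 bases before the RefSeq starts are shown for Atic and Hprt, the genes whose genotypes did not overlap, and for Gart, which had the largest difference. They are written 5′ to 3′ on the strand of the gene, with CACGTG and CCAAT in capitals.
Atic, chr1:71556906-71557155, plus strand: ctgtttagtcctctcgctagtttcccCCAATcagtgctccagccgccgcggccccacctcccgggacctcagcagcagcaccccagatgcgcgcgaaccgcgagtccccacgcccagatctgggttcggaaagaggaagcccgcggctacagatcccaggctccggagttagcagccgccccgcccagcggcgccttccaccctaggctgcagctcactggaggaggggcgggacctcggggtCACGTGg
Gart, chr16:91646973-91647222, minus strand: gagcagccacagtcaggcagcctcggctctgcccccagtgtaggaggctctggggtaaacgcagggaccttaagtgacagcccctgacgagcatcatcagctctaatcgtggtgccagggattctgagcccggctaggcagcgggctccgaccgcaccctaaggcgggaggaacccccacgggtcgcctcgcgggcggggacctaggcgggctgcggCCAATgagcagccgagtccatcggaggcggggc
Hprt, chrX:52987828-52988077, plus strand: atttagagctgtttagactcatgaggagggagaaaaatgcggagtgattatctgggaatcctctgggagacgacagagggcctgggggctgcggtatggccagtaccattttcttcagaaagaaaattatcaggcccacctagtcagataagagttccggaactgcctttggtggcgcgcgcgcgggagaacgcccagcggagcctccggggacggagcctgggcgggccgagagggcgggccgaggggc
Atic holds both motifs in this stretch, Gart holds CCAAT and Hprt holds neither.

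The wider pathway was described with 10 lists of 93 genes, of which 91 were in the table and 87 passed the filter. Of the 87, 5 passed an adjusted p of 0.05 by limma, or 5.75%, beside 6.00% of all genes: Adk and Asns rose, and Gmpr2, Ak1 and Max fell. An unadjusted p under 0.05 by limma was seen for 31 of the 87, beside 24.2% of all genes. By the fitted difference 61 of the 87 were higher and 26 lower in Znf143 -/- cells, and their median log2 difference was 0.133, beside 0.006 over all genes. Without f/f library 2 and -/- library 1, 49 of the 87 passed, 37 higher and 12 lower, in a fit that called 41.4% of all genes. With the close pairs averaged 0 passed, in a fit that called 0.245% of all genes.

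Gmpr2, which reduces GMP back to IMP and so runs opposite to the guanylate branch, had the smallest adjusted p of the 5. It was at 6.21, 6.97 and 6.73 FPKM in f/f and at 3.13, 3.63 and 3.54 FPKM in -/- libraries, with no overlap and a log2 change of -0.93 (SE 0.107, limma adjusted p = 0.00693). Without f/f library 3 its adjusted p was 0.0503. Its paralog Gmpr was at 29.3, 24 and 29.7 FPKM in f/f and at 38.6, 34.8 and 34.6 FPKM in -/- libraries, a log2 difference of 0.38 that did not pass (limma adjusted p = 0.0933).

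Ak1, an adenylate kinase that interconverts AMP, ADP and ATP, was at 13.2, 10.1 and 12.3 FPKM in f/f and at 7.91, 7.92 and 8.05 FPKM in -/- libraries (log2 change -0.56, SE 0.115, limma adjusted p = 0.0411). No other member of the list of nucleotide kinases and interconversion passed, so that 2 of its 15 tested genes were called, each of them lower. By the fitted difference 9 of the 15 were higher and 6 lower, and 8 had an unadjusted p under 0.05 by limma. The most abundant of the list was Nme1, a nucleoside diphosphate kinase, at 142 ± 7.77 FPKM in f/f and 149 ± 6.06 FPKM in -/- cells (SD, n = 3). In the adenylate branch and other salvage, 1 of 8 genes passed. By the fitted difference 6 of the 8 were higher and 2 lower, and 4 had an unadjusted p under 0.05 by limma. The gene that passed was Adk, the adenosine kinase that salvages adenosine to AMP, at 16.7, 16.5 and 17.1 FPKM in f/f and at 21.5, 21 and 21 FPKM in -/- libraries (log2 change 0.33, SE 0.0703, limma adjusted p = 0.0439). Aprt, the adenine counterpart of Hprt and the most abundant of that list, was at 166 ± 19.5 FPKM in f/f and 163 ± 9.15 FPKM in -/- cells.

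The lists of precursor supply gave 1 call, and it was of an enzyme that uses glutamine and aspartate rather than supplying them. Asns, which makes asparagine from aspartate and glutamine, was at 21, 22 and 21.7 FPKM in f/f and at 26.7, 31 and 31.7 FPKM in -/- libraries (log2 change 0.46, SE 0.0916, limma adjusted p = 0.0379), and it was the 1 of 10 genes of glutamine and aspartate supply to pass. Prps1, a PRPP synthetase and the most abundant gene of the list of PRPP supply, was at 59.7, 50.9 and 58.7 FPKM in f/f and at 50.4, 101 and 91.1 FPKM in -/- libraries. As for Paics, -/- library 1 was below and the other two were above all f/f libraries, and the log2 difference of 0.46 did not pass (limma adjusted p = 0.33). None of the 5 genes of PRPP supply, the 8 of the pentose phosphate route or the 16 of one-carbon and folate metabolism passed, of which 0, 1 and 6 had an unadjusted p under 0.05, and none of the 8 of purine breakdown passed, of which 3 had. Of the 10 genes of glutamine and aspartate supply, 4 had an unadjusted p under 0.05. Over all genes 24.2% had an unadjusted p under 0.05. Phgdh, which opens serine synthesis, was at 176, 180 and 165 FPKM in f/f and at 168, 246 and 230 FPKM in -/- libraries. Taldo1, the transaldolase of the pentose phosphate route, was at 195 ± 21.7 FPKM in f/f and 192 ± 40.4 FPKM in -/- cells, Nt5c, a nucleotidase, at 94.9 ± 10.2 and 117 ± 16.2 FPKM, and Glul, glutamine synthetase, at 34.8 ± 0.495 and 43.5 ± 6.1 FPKM.

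Among 5 regulators of purine genes, 1 passed. Max, the partner with which Myc binds E-boxes, fell from 15.1, 13 and 15.2 FPKM in f/f to 10.7, 8.71 and 9.55 FPKM in -/- libraries (log2 change -0.57, SE 0.114, limma adjusted p = 0.0373). Myc was at 113, 115 and 117 FPKM in f/f and at 94.6, 99.6 and 102 FPKM in -/- libraries, with no overlap and a log2 difference of -0.22 that did not pass (limma adjusted p = 0.145). The calls of Adk, Asns and Max were each lost without any 1 of f/f libraries 1 and 3 and -/- libraries 2 and 3, with adjusted p of 0.125 to 0.203, and that of Ak1 was lost without any 1 library other than f/f library 2. Without f/f library 2 and -/- library 1, the log2 changes of Adk, Asns, Gmpr2, Ak1 and Max were 0.31, 0.55, -0.84, -0.67 and -0.72, and all 5 passed. With the close pairs averaged they were 0.35, 0.41, -0.98, -0.51 and -0.50, and none passed (limma adjusted p of 0.176 to 0.553).

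**Figure D4:**
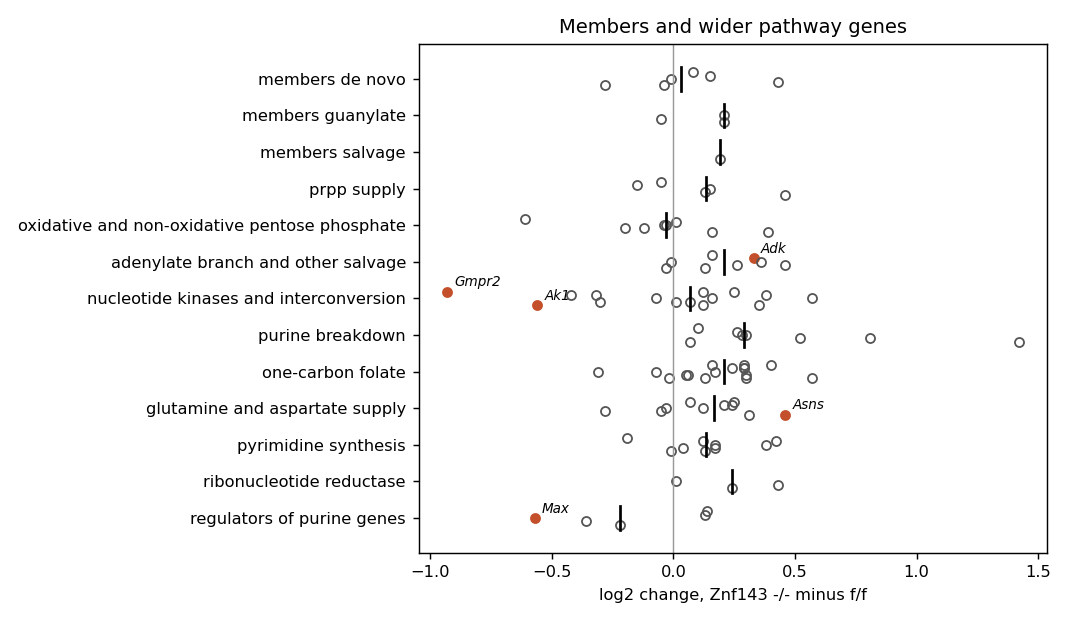
Log2 difference of each tested gene, Znf143 -/- minus f/f, by list, with black bars at the list medians and filled orange points where the adjusted p was under 0.05. The calls lie outside the 10 members, and the list medians run from -0.219 for the regulators to 0.292 for purine breakdown.

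Marker genes of the sorted cells and of other blood cells also differed between the genotypes. Of 10 stem cell markers, Ly6a (Sca-1, used for the sort) rose by 1.13 on the log2 scale and Mecom fell by 0.55, and all 10 were detected in every library. Of the 7 tested sort-negative and myeloid markers 4 passed, all higher in -/- cells. Cd48, against which the cells were sorted, was at 9.32 to 10.8 FPKM in f/f and at 19.1 to 19.9 FPKM in -/- libraries, and Elane, Ctsg and Csf1r were the others. The summed level of that list was 132 to 231 FPKM in f/f and 176 to 297 FPKM in -/- libraries, most of it from Prtn3 (118 to 271 FPKM). Of the lymphoid markers, Cd79a, Cd3e and Il7r were at or below 0.0816 FPKM in all libraries, whereas Flt3 and Dntt rose, and the summed list was at 4.93 to 5.59 FPKM in f/f and 22.4 to 23.1 FPKM in -/- libraries. Of the 8 erythroid and megakaryocyte markers, Gata1 passed as higher and Hbb-bt as lower. The sum of this list was 468 to 557 FPKM in f/f and 602 to 922 FPKM in -/- libraries. Most of that sum came from Pf4, at 380 to 465 FPKM in f/f and 486 to 800 FPKM in -/- libraries. Pf4 was highest in -/- library 1 and did not pass (limma adjusted p = 0.261). The 10 markers that passed with 6 libraries also passed without f/f library 2 and -/- library 1, and with the close pairs averaged only Flt3 did (limma adjusted p = 0.0405). The part of these differences in the levels of the purine genes was not tested.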

How the data were processed

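Reads had been trimmed (TrimGalore), aligned to GRCm38 (STAR) and counted per gene (FeatureCounts). The authors deposited 1 table with the FPKM of each library, scaled to a listed gene length and to a divisor of the library, and the columns of their own DESeq2 comparison (mean count, log2 fold change, test statistic and p-values), which were not used. Fragments recovered from the deposited FPKM were whole (within 0.05) for 99.986% of 138696 values. The divisor of -/- library 3 equalled that of -/- library 2, although its fragments were 1.1967 times as many, so all libraries were put on 1 scale with median-of-ratios size factors from 19046 genes. Genotypes were compared on log2(rescaled FPKM + 0.1) with limma 3.58.1 (R 4.3.3, variance trend) over genes with a mean of at least 0.1, with Benjamini-Hochberg adjustment over all genes, and ratios by exact permutation. Such log2 differences understate the change of low genes. An FPKM of 0.0501 to 0.0761 corresponds to 3 fragments on 1 kilobase.

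On simulated libraries of these 19221 genes, 163 of 200 changed genes (81.5%) were recovered with 5 false calls. The simulation drew independent libraries with the same relative spread for every gene, and so without close pairs. Its changes were larger than those of the 10 members, so neither count carries over to the members or to the real libraries. The members and lists were chosen with earlier results of these data known. Genes named in the text were the 10 members, Zfp143, called and most abundant genes of each list, head-to-head neighbours within 1000 bases, and the 5 genes most like the mean profile. Ctcf, Gmpr, Impdh2-ps, Mki67, 2310040G07Rik and the markers that were not called were named after their values were seen. Gene positions are those of GENCODE release M21, matched by symbol. The animals are described as separate mice. Only if that holds for the 2 close pairs of libraries do the p-values measure the spread between mice. ChIP-seq and HiC samples were not analysed here. A marker gene of the lymphoid list is not reported here.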

Additional observations from a re-analysis of the deposited data

How the results depend on the processing

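Zfp143 was lower and passed under all 17 alternatives (-3.96 to -1.90). Without 1 library, the number of called genes ran from 223 to 2239 (370, 2239 and 260 without f/f library 1, 2 or 3, and 2110, 355 and 223 without -/- library 1, 2 or 3), that of members from 0 to 1 (Gart without -/- library 1), and that of the 87 wider pathway genes from 0 to 12. With f/f library 2 and -/- library 1 left out, 7960 genes, 6 members (Gart 0.56, Paics 0.24, Adsl 0.14, Gmps 0.27, Hprt 0.25 and Atic -0.23) and 49 wider genes passed. With the close pairs averaged, 47 genes, 0 members and 0 wider genes passed. Both alternatives were chosen after the data were seen, and the first keeps only the close pairs. The FPKM as deposited moved the median log2 difference of all genes to 0.114, gave 63.5% of 833 calls as higher, beside 50.1% of 1154, left 1 wider gene past the threshold and turned Ppat to 0.07, Pfas to 0.10 and Impdh2 to 0.07. Division by the library's own total left 1 wider gene and turned Pfas to 0.01, and without a variance trend 1 wider gene passed. Ppat was 0.01 without the 2 libraries that stood apart. Without 1 library, Ppat ran from -0.15 to 0.12, Gart from 0.32 to 0.63, Pfas from -0.06 to 0.05, Paics from 0.06 (without -/- library 2) to 0.31 (without -/- library 1), Adsl from 0.04 to 0.15 (the same libraries), Atic from -0.31 to -0.24, Impdh1 from 0.06 (without f/f library 2) to 0.32 (without f/f library 1), Impdh2 from -0.10 to 0.04, Gmps from 0.14 to 0.34 (without -/- library 1) and Hprt from 0.17 to 0.22. The cause of these shifts was not tested. The direction of Gart, Paics, Adsl, Impdh1, Gmps, Hprt and Atic held under all 17 alternatives. The 2 ratios kept their direction under the 9 settings run, from -0.42 to -0.02 for Impdh2 to Impdh1 and from 0.16 to 0.24 for Paics to Ppat.

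With the replicate number as a block, 186 genes, 0 members and 0 wider genes passed. Deviations of same-numbered libraries correlated at -0.17, -0.15 and 0.10 over 12441 genes, and those of differently numbered f/f and -/- libraries at -0.12 to 0.17. With 3 libraries per genotype these values cannot settle whether the libraries are paired by number, and the main fit does not pair them. Littermate pairs are described in the study, but which libraries form a pair is not given in the sources used here.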

Other observations

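Genes of the cell cycle, whose demand for nucleotides is the usual setting of purine synthesis, were counted in a list of 15. By limma 1 passed an adjusted p of 0.05, or 6.67%, beside 6.00% of all genes. This was Pcna, the sliding clamp of DNA replication, at 100, 107 and 104 FPKM in Znf143 f/f and at 128, 137 and 134 FPKM in Znf143 -/- libraries (log2 change 0.36, adjusted p = 0.049). It was 0.41 (limma adjusted p = 0.00337) without f/f library 2 and -/- library 1, and with the close pairs averaged it was 0.33 (limma adjusted p = 0.612). The list had a median log2 difference of 0.165, beside 0.006 over all genes tested. In it 10 genes were higher and 5 lower, beside 9736 higher and 9485 lower over all genes tested. Of these 15 genes, 11 were lowest among the -/- libraries in library 1, where 45.1% of all genes tested were. Mki67, a marker of dividing cells, was at 6.46, 7.87 and 6.64 FPKM in f/f and at 7.35, 4.87 and 5.31 FPKM in -/- libraries (log2 difference -0.27, adjusted p = 0.394).

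Of the 3 genes of ribonucleotide reductase, which turns ribonucleotides into the precursors of DNA, none passed by limma, and 1 had an unadjusted p under 0.05. This was Rrm2, the regulated small subunit and the most abundant of the 3, at 38.5, 31 and 40.8 FPKM in f/f and at 48.7, 48.7 and 50.4 FPKM in -/- libraries (log2 difference 0.43, adjusted p = 0.0795). Of the 9 genes of pyrimidine synthesis none passed by limma, 2 had an unadjusted p under 0.05 and 7 were higher. Cmpk1, the kinase of CMP and UMP and the most abundant of the 9, was at 44.1, 43.4 and 46.1 FPKM in f/f and at 48.9, 63.5 and 62.9 FPKM in -/- libraries (log2 difference 0.38, adjusted p = 0.113).

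An antisense gene within Ppat, 2310040G07Rik, named here after its values were seen, was at 0.288, 0.526 and 0.168 FPKM in f/f and at 0.111, 0.0502 and 0.0845 FPKM in -/- libraries (log2 difference -1.16, limma adjusted p = 0.126). The library kit does not mark strand, so its fragments and those of Ppat introns cannot be told apart. The -/- values of this gene lie near 0.0501 to 0.0761 FPKM, which corresponds to 3 fragments on 1 kilobase. The fit adds 0.1 FPKM to every value, so the size of its log2 difference is uncertain.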
